A study of Mus musculus with 12 samples.

Results

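Integrins are the cell-surface receptors for extracellular matrix, and laminins are the matrix proteins that organise basement membranes. The genes of both families, together with nidogens, perlecan, agrin and dystroglycan, were followed through primary mouse hepatic stellate cells (HSCs), liver pericytes that store vitamin A and can become myofibroblasts, the main makers of scar matrix. Members were taken from the deposited expression table by symbol: integrin alpha and beta chains (without the integrin-binding proteins), laminin alpha, beta and gamma chains, Nid1, Nid2, Hspg2, Agrn and Dag1. Of the 12081 genes in the table, 36 are described, of which 4 encode leukocyte integrins (Itgam, Itgax, Itgal and Itgb2) and are treated apart from the other 32. Other chains, such as Itgb4 and Lamb3, were not analysed here.

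All cells came from mice with loxP-flanked Hk2 (Hk2 fl/fl), the gene of hexokinase 2, which carries out the first step of glycolysis. The LAC group was transduced with an adenovirus that expresses Cre recombinase fused to eGFP (labelled Ad-Cre) and received 10 mM lactate for 24 h. The KO group received the same Ad-Cre virus, kept in culture for 6 days. The labels describe LAC as KO cells given lactate, so LAC shares that culture, without saying whether the 24 h lie within the 6 days. The ACT group received the adenovirus with eGFP alone (labelled Ad-GFP) and was cultured for 6 days as the activated control, so its Hk2 alleles were floxed but intact. The QS group was freshly isolated and untreated, so ACT and QS differ in culture and in virus at once, and the effects of these cannot be told apart. Each group had 3 libraries, 12 in all, from cells purified on a density gradient with no sort stated. Whether replicate libraries stem from different mice or cultures is not stated in the labels, so p-values reflect library-to-library spread that could be purely technical. Values are the authors' normalized CPM (counts per 1e6 reads), not corrected for gene length.

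An integrin is a pair of an alpha and a beta chain: the alpha chain largely sets which matrix protein is bound, and the beta chain links through talin and kindlin to the actin cytoskeleton. A laminin is a trimer of an alpha, a beta and a gamma chain that polymerises on the cell surface, where nidogens and perlecan tie it to the collagen IV network and dystroglycan and integrins anchor it to the cell. The normal space between stellate cells and sinusoidal endothelium holds only a sparse, discontinuous basement membrane, and fibrosis is known to make it denser. Integrins that pair with the alpha V chain are also known to release TGF-beta, the main fibrogenic cytokine, from its latent form.

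Hk2 measured 18.7, 19.6 and 19.7 CPM in LAC libraries, 10.7, 13.7 and 11.9 in KO, 181, 182 and 181 in ACT and 73.3, 66.7 and 73.5 in QS, so the libraries go with their genotype labels. Depth, estimated from the size of the smallest value steps and given in units of 1e6 reads, was 8.67 to 11.05 in LAC, 5.85 to 11.64 in KO, 11.41 to 14.002 in ACT and 4.35 to 10.14 in QS. At these depths 3 reads correspond to 0.212 CPM in the deepest library and 0.720 CPM in the shallowest. The stellate genes bear on the labelled cell type: Lrat, the retinyl ester-forming enzyme, averaged 14.0 CPM in LAC, 17.4 in KO, 3.09 in ACT and 352 in QS. Acta2, smooth muscle actin, averaged 1434 CPM in LAC, 653 in KO, 2656 in ACT and 2.64 in QS. The summed level of 12 stellate and myofibroblast markers ranged over 6723 to 7088 CPM in LAC, 3958 to 4239 in KO, 11425 to 11473 in ACT and 2996 to 3038 in QS. These 12 did not share the course of their sum: 6 were higher and 5 lower in KO than in ACT. In LAC vs ACT 7 were higher and 5 lower, and in ACT vs QS 6 were higher and 6 lower. Over all genes, 62.4% were called in KO vs ACT, 49.5% in LAC vs ACT and 73.5% in ACT vs QS. Markers of other cells were present as well. The summed level of 18 macrophage markers ranged over 3844 to 3889 CPM in LAC, 168 to 174 in KO, 15515 to 15883 in ACT and 6650 to 6703 in QS. The sum of 16 liver endothelial markers ranged over 4398 to 4608 CPM in LAC, 8014 to 9068 in KO, 687 to 715 in ACT and 13917 to 14500 in QS. The sum of 12 hepatocyte markers ranged over 117 to 125 CPM in LAC, 352 to 367 in KO, 323 to 331 in ACT and 2302 to 2332 in QS, and that of 8 mesothelial markers over 88.8 to 91.0 CPM in LAC, 64.0 to 65.0 in KO, 213 to 229 in ACT and 59.9 to 64.2 in QS. Of the 12 hepatocyte markers, 11 were higher and 1 lower in KO than in ACT, beside 36% and 26.3% of all genes. In LAC 11 of the 12 averaged under 1 CPM and 5 were at 0 in every library, and in ACT 6 averaged under 1 CPM. The LAC and ACT hepatocyte sums thus rest on part of the list. Since these are bulk libraries, fewer cells of a type and less RNA per cell cannot be told apart in any value that follows.

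Promoter windows are shown for 5 members with large changes, chosen after their values were seen, so that the sequences can be read beside the values given further on: Itgam, Itgax, Lama2 and Itgb5 (below ACT in KO cells, above KO in LAC cells) and Itga8 (the reverse). They are the 250 bases before the RefSeq start of each gene (GRCm38.p6, 5′ to 3′ on the gene's strand), at chr7:128062390-128062639 (+) for Itgam, chr7:128129300-128129549 (+) for Itgax, chr10:27616943-27617192 (-) for Lama2, chr16:33829415-33829664 (+) for Itgb5 and chr2:12301945-12302194 (-) for Itga8. Capitals mark matches, on either strand, to GAGGAA (core of the myeloid factor PU.1), GGAATG (TEAD), TGANTCA (AP-1), GGGCGG (GC box) and CAGAC (SMAD).
Itgam: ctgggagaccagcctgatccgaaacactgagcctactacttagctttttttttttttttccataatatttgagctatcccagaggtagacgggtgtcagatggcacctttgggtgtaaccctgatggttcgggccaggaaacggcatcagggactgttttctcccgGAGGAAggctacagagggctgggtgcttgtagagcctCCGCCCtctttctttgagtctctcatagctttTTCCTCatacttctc
Itgax: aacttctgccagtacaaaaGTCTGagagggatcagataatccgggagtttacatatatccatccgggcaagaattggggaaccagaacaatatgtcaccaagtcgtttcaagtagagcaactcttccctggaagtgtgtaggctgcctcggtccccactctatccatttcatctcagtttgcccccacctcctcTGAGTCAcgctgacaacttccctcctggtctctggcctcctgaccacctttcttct
Lama2: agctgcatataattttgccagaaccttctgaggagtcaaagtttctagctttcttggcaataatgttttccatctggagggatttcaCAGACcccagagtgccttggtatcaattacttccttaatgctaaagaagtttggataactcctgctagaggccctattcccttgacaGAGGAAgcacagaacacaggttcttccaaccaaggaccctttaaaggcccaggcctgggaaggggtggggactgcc
Itgb5: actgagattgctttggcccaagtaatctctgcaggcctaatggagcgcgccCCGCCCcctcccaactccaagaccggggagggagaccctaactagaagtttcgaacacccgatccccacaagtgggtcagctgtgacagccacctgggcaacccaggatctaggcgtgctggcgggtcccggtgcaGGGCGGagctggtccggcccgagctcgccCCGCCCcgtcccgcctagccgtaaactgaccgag
Itga8: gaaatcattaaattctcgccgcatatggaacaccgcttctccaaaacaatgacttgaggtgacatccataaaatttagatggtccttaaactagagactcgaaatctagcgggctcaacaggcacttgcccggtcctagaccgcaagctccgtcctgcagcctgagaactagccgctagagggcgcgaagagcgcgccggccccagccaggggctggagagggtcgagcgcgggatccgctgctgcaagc

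Counting back from the start, GAGGAA lay at -84 and -15 before Itgam and at -76 before Lama2, TGANTCA at -56 before Itgax, and GGGCGG at -199, -63 and -34 before Itgb5. The Itga8 window held no match to these letters. The RefSeq start used for Lama2 lies inside that gene as GENCODE M21 annotates it. Windows were available for 26 of the 36 members (30 windows, since some genes have more than 1 start). GAGGAA was found in 43.3% of them and in 22.5% of all 12291 windows of the genes in the table, GGAATG in 10.0% and 10.6%, TGANTCA in 3.33% and 4.73%, GGGCGG in 50.0% and 57.1%, and CAGAC in 43.3% and 40.4%. GAGGAA also stood before members with the opposite course, such as Lama5. For Itga3 it lay only before a start inside the annotated gene, and not before the upstream start. A match describes the letters in the window and is not a binding site.

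Of the 32 members, 13 were higher and 11 lower in KO than in ACT at a limma adjusted p under 0.05. Over all genes 62.4% passed that test, 36% higher and 26.3% lower, so a called gene is not unusual in this table. The members' median log2 fold change was 0.22, against 0.07 for all genes. At 2-fold or more, 7 members were higher and 8 lower, where 18.9% of all genes passed in either direction. For lactate, 14 members were higher and 9 lower in LAC than in KO, against a background of 41% called (20% higher, 21% lower), and the median was 0.18 against -0.02. Here 6 members passed 2-fold upward and 1, Itga8, downward, with 7.3% of all genes past 2-fold. For culture, 17 members were higher and 12 lower in ACT than in QS, with 73.5% of all genes called (38% higher, 35.5% lower), and 14 and 9 of these reached 2-fold (31.2% of all genes). Their median of 0.53 stood against 0.03 for all genes. Both lower counts in ACT vs QS include Lama3, whose fall was partly fixed in advance, as given further on. With log2(CPM + 1) as the scale, fold changes of genes at a few CPM are understated throughout.

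**Figure D1:**
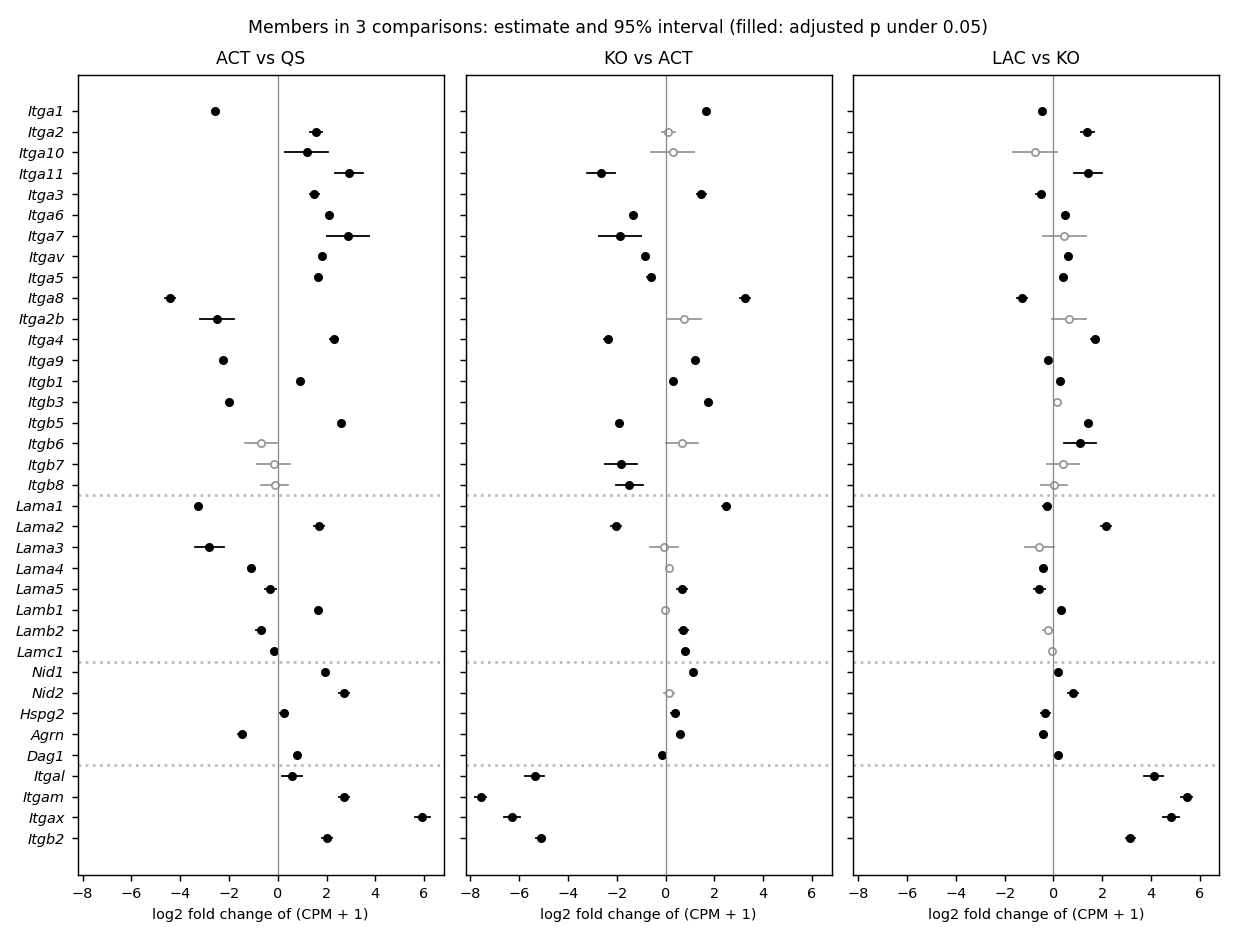
Log2 fold changes of CPM + 1 for the 36 members in ACT vs QS, KO vs ACT and LAC vs KO, with 95% intervals from limma; filled points have an adjusted p under 0.05, and dotted lines part integrins, laminins, other basement membrane genes and leukocyte integrins. The leukocyte integrins at the bottom have the lowest estimates of the KO vs ACT panel and the highest of the LAC vs KO panel.

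The collagen-binding alpha chains differed in course. Itga1, whose pair with beta 1 binds collagen IV, measured 195, 178 and 178 CPM in LAC, 257, 249 and 251 in KO, 83.4, 73.8 and 81.9 in ACT and 463, 458 and 502 in QS. No groups overlapped; the same held for 69.2% of all genes between KO and ACT, 52.2% between LAC and KO, 62.8% between LAC and ACT, 76.3% between ACT and QS and 72.5% between KO and QS. KO cells were higher than ACT cells by 1.65 on the log2 scale (SE 0.054, limma adjusted p = 3.68e-12), and LAC cells lower than KO cells (-0.46, SE 0.054, adjusted p = 1.15e-05). Itga11, the fibrillar collagen receptor chain of fibroblasts, took the opposite course at a low level, with 2.75, 3.17 and 2.83 CPM in LAC, 0, 0.595 and 1.02 in KO, 7.08, 7.74 and 10.6 in ACT and 0.415, 0.331 and 0 in QS. It fell in KO against ACT by 2.66 (SE 0.265, adjusted p = 8.23e-07) and rose in LAC against KO (log2 fold change 1.41, SE 0.265, adjusted p = 0.000786), though the KO and QS values are near or below 3 reads. Itga2, the chain of the platelet and epithelial collagen receptor, had 40.5, 38.2 and 37.3 CPM in LAC, against 16.7, 12.9 and 13.0 in KO, 13.5, 12.4 and 13.0 in ACT and 3.36, 3.60 and 4.18 in QS. Its LAC libraries stood above every other group. LAC exceeded KO by 1.39 (SE 0.121, adjusted p = 5.67e-07) and ACT by 1.50 (SE 0.121, adjusted p = 1.39e-07), and KO and ACT differed by 0.11 (95% interval -0.15 to 0.37, adjusted p = 0.455). Itga10 stayed between 0.316 and 4.93 CPM in all libraries and passed the test in ACT vs QS (1.183, adjusted p = 0.0199) and KO vs QS (1.47, adjusted p = 0.00588). The ACT vs QS call of Itga10 was lost without QS replicate 2, QS replicate 3 or ACT replicate 2 (adjusted p 0.0769, 0.0688 and 0.0564) and with quantile normalization (0.0989).

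Among laminin-binding alpha chains, Itga3 and Itga6 moved in opposite directions between KO and ACT. Itga3 measured 117, 104 and 107 CPM in LAC, 171, 152 and 149 in KO, 56.2, 60.2 and 53.3 in ACT and 22.1, 19.2 and 17.3 in QS, with KO highest. It was 2.78 times the ACT mean in KO (log2 fold change 1.46, SE 0.085, adjusted p = 2.3e-09) and lower in LAC than in KO (-0.52, SE 0.085, adjusted p = 0.000228). Itga6 measured 105, 105 and 99.98 CPM in LAC, 73.2, 70.7 and 76.1 in KO, 185, 186 and 192 in ACT and 41.6, 43.3 and 42.6 in QS, with ACT highest. KO was at 39.0% of ACT (log2 fold change -1.35, SE 0.044, adjusted p = 4.2e-12), and LAC was 1.41 times KO (0.49, SE 0.044, adjusted p = 8.98e-07). Itga7, the muscle laminin receptor chain, had 1.52, 3.05 and 1.23 CPM in LAC, 3.45, 0.411 and 0.427 in KO, 8.43, 4.42 and 7.61 in ACT and 0.0616, 0.0612 and 0 in QS. Its ACT libraries did not overlap with KO (-1.87, SE 0.402, adjusted p = 0.00106), and KO replicate 1 stood apart from the other KO libraries: without it, LAC was called higher than KO (1.00, adjusted p = 0.0224, against 0.45 and 0.405 with it).

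Among the chains that read the RGD motif of fibronectin and vitronectin, Itga5 was the most abundant per kb of transcript in every group. Itga5, the chain of the classical fibronectin receptor, measured 452, 431 and 429 CPM in LAC, 364, 340.2 and 298 in KO, 489, 534 and 505 in ACT and 168, 161 and 157 in QS. Itgav averaged 375 ± 10.4 CPM in LAC, 252 ± 14.1 in KO, 456 ± 8.55 in ACT and 129.7 ± 4.62 in QS (SD, n = 3 each). Both followed the order ACT, LAC, KO, QS with no overlap between neighbours, at -0.61 for Itga5 (SE 0.061, adjusted p = 8.21e-07) and -0.86 for Itgav (SE 0.044, adjusted p = 4.97e-10) in KO vs ACT. In LAC vs KO the estimates were 0.39 for Itga5 (adjusted p = 0.000155) and 0.57 for Itgav (adjusted p = 1.41e-07). Itga8, whose pair with beta 1 binds nephronectin, ran the other way: 24.6, 20.9 and 23.9 CPM in LAC, 61.3, 54.0 and 57.7 in KO, 5.45, 4.49 and 5.79 in ACT and 127, 139 and 124 in QS. KO was 11.0 times ACT (log2 fold change 3.24, SE 0.095, adjusted p = 1.18e-12), and LAC 40.1% of KO (-1.28, SE 0.095, adjusted p = 1.09e-07). No members outside the leukocyte integrins had a larger difference in KO vs ACT on the log2(CPM + 1) scale, though by the ratio of means the low Itga11 differed more, at 6.36% of ACT in KO. Itga2b, the platelet fibrinogen receptor chain, averaged 3.91 ± 0.782 CPM in LAC, 2.49 ± 1.75 in KO, 0.861 ± 0.201 in ACT and 9.33 ± 0.251 in QS. It missed the threshold in KO vs ACT (0.77, adjusted p = 0.0508) but passed it without KO replicate 3 (1.23, adjusted p = 0.000284). It also passed with equal totals (adjusted p = 0.0453), quantile normalization (0.0195), array weights (0.0124) and a filter of at least 5 CPM in 3 libraries (0.0468).

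**Figure D2:**
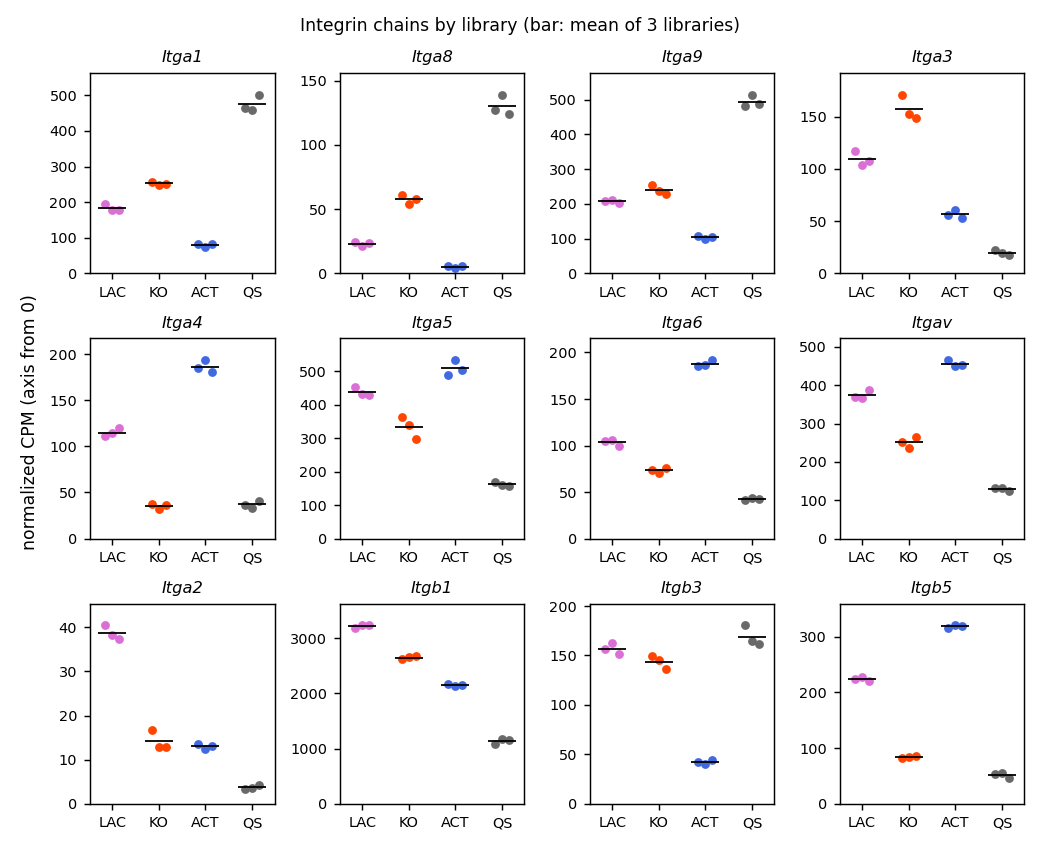
Normalized CPM of 12 integrin chains, each point 1 library and each bar the mean of 3, with axes from 0. Itga1, Itga8, Itga9 and Itgb3 are lowest in ACT, and Itga4, Itga5, Itga6, Itgav and Itgb5 are highest in ACT with LAC between ACT and KO.

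Itga4 and Itga9 form a structural pair of alpha chains that bind VCAM-1, fibronectin, tenascin and osteopontin. Itga4, which is abundant on leukocytes, measured 111, 114 and 119 CPM in LAC, 37.2, 32.2 and 36.0 in KO, 185, 194 and 180.2 in ACT and 36.7, 33.6 and 40.6 in QS. KO stood at 18.9% of ACT (log2 fold change -2.38, SE 0.071, adjusted p = 1.53e-12) and LAC at 3.27 times KO (1.68, SE 0.071, adjusted p = 3.05e-10), while KO and QS libraries overlapped (-0.07, 95% interval -0.22 to 0.08). Itga9 measured 208, 211 and 203 CPM in LAC, 254, 237 and 228 in KO, 108, 99.1 and 105 in ACT and 481, 514 and 489 in QS. It was 2.31 times as high in KO as in ACT (1.20, SE 0.047, adjusted p = 2.66e-11) and slightly lower in LAC than in KO (-0.21, SE 0.047, adjusted p = 0.00293). The members that were higher in KO than in ACT and lower in LAC than in KO (Itga1, Itga3, Itga8, Itga9, Lama1, Lama5, Hspg2 and Agrn) went with the endothelial marker sum, whose mean was higher in KO than in ACT and lower in LAC than in KO, though Itga3, Hspg2 and Lama5 were highest in KO, and Itga3 and Hspg2 lowest in QS, whereas that sum was highest in QS and lowest in ACT. Cdh5, VE-cadherin, averaged 769 ± 40.6 CPM in LAC, 1356 ± 96.3 in KO, 70.9 ± 5.31 in ACT and 2189 ± 67.1 in QS (SD, n = 3 each), and Kdr, a VEGF receptor, averaged 246 CPM in LAC, 548 in KO, 27.4 in ACT and 1983 in QS. All 16 endothelial markers were lower in ACT than in QS and 15 were higher in KO than in ACT. The part of endothelial cells in these integrin and laminin values was not tested.

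Itgb1, the common partner of most matrix-binding alpha chains, measured 3175, 3236 and 3234 CPM in LAC, 2621, 2654 and 2669 in KO, 2171, 2126 and 2142 in ACT and 1084, 1169.8 and 1152 in QS. Its order was LAC, KO, ACT, QS without overlap. The steps were 0.28 in LAC vs KO (SE 0.031, adjusted p = 6.3e-06), 0.30 in KO vs ACT (SE 0.031, adjusted p = 1.02e-06) and 0.92 in ACT vs QS (SE 0.031, adjusted p = 2.67e-12). Itgb3, which pairs with alpha V or alpha IIb, measured 157, 163 and 151 CPM in LAC, 149, 145 and 137 in KO, 41.9, 40.1 and 44.0 in ACT and 181, 165 and 162 in QS. It was 3.42 times as high in KO as in ACT (1.75, SE 0.055, adjusted p = 2.67e-12), and LAC and KO did not differ past the threshold (0.13, 95% interval 0.01 to 0.25, adjusted p = 0.0843). Itgb5, the vitronectin-binding partner of alpha V, measured 224, 227 and 219.9 CPM in LAC, 83.0, 83.5 and 85.6 in KO, 316, 321 and 318 in ACT and 52.7, 54.9 and 46.3 in QS. These groups did not overlap, and the spread within each was small: KO stood at 26.4% of ACT (-1.91, SE 0.053, adjusted p = 5.88e-13) and LAC at 2.66 times KO (1.40, SE 0.053, adjusted p = 8.08e-11). The beta chains that share alpha V thus differed in course between KO and ACT, Itgb3 and Itgb1 higher and Itgb5 lower.

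The remaining beta chains were low. Itgb6, the epithelial partner of alpha V that releases TGF-beta, had 5.63, 4.52 and 6.62 CPM in LAC, 3.33, 0.898 and 2.61 in KO, 1.21, 0.766 and 0.821 in ACT and 1.24, 2.95 and 2.36 in QS, and was higher in LAC than in KO (1.08, SE 0.302, adjusted p = 0.0114). In KO vs ACT it missed the threshold (0.69, adjusted p = 0.0629) but passed it without KO replicate 2 (1.04, adjusted p = 0.00455). It also passed with quantile normalization (adjusted p = 0.0207) and array weights (0.033). Itgb7, a lymphocyte homing receptor chain, had 3.18, 1.79 and 1.78 CPM in LAC, 1.29, 3.29 and 0.483 in KO, 6.92, 8.57 and 7.55 in ACT and 9.46, 9.24 and 7.58 in QS. KO libraries lay below all ACT libraries (-1.82, SE 0.308, adjusted p = 0.000147) and overlapped with LAC. Itgb8, the other TGF-beta-releasing partner, fell in KO against ACT by 1.49 (SE 0.253, adjusted p = 0.000154), with means of 0.534 ± 0.310 CPM in LAC, 0.547 ± 0.520 in KO, 3.19 ± 0.294 in ACT and 3.59 ± 0.514 in QS (SD, n = 3 each); LAC and KO are near 3 reads.

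To compare chains with each other, CPM was divided by the length of the longest protein-coding transcript of each gene (GENCODE M21 basic set, mm10). On this scale Itgb1 was the most abundant of the 36 members in every group and averaged 843 CPM per kb in LAC, 694 in KO, 563 in ACT and 298 in QS. This is above the sum of the 12 alpha chains that can pair with it, which was 268 ± 5.09 in LAC, 235 ± 12.4 in KO, 284 ± 3.51 in ACT and 209.9 ± 2.23 in QS (SD, n = 3 each). The mix of alpha chains differed between groups. In the collagen-binding set Itga1 held 72.0% of the summed level per kb in LAC, 88.7% in KO, 63.6% in ACT and 98.2% in QS, and Itga2 held 23.4% in LAC, 7.67% in KO, 16.0% in ACT and 1.185% in QS. Itga11 reached 14.9% in ACT, against 0.117% in QS. In the laminin-binding set Itga3 held 47.9% ± 1.85 in LAC, 65.1% ± 1.55 in KO, 20.4% ± 1.36 in ACT and 28.9% ± 2.81 in QS (SD, n = 3 each). The summed level of the laminin-binding set itself was 46.9 CPM per kb in LAC, 49.8 in KO, 56.9 in ACT and 13.9 in QS, so KO and ACT differed more in the split between Itga3 and Itga6 than in the sum. These shares are descriptions without a test, and they rest on transcript lengths that do not account for isoform use.

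**Figure D3:**
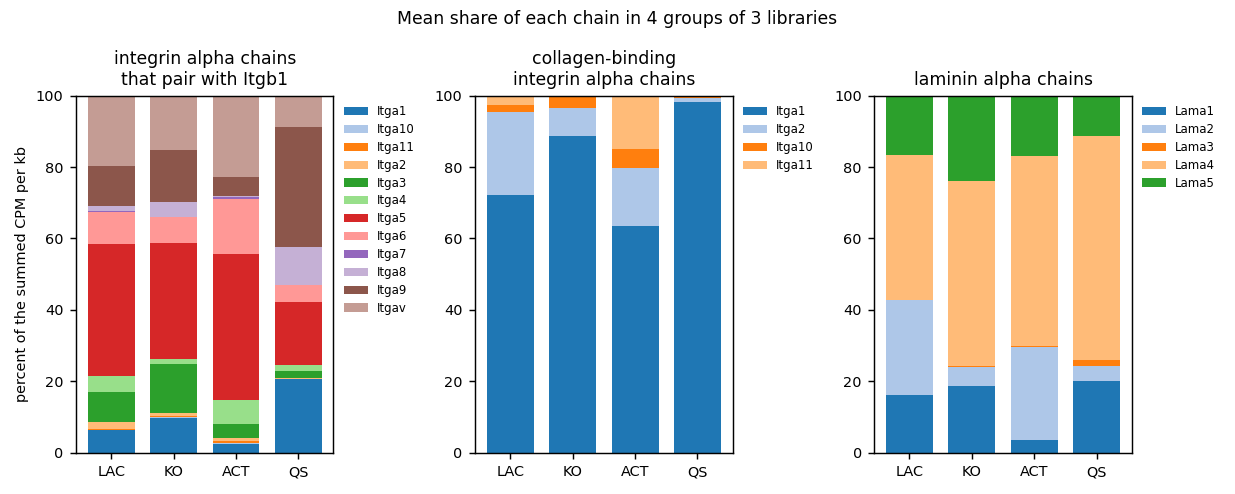
Mean share of each chain in the summed CPM per kb of 3 sets, for LAC, KO, ACT and QS (3 libraries each). Itga1 holds 98.2% of the collagen-binding set in QS and 63.6% in ACT, and Lama2 holds 26.6% of the laminin alpha chains in LAC, 5.48% in KO, 26.1% in ACT and 4.33% in QS.

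The laminin alpha chains set the identity of the trimer and its receptor binding. Lama1, the chain of laminin-111, measured 50.0, 49.6 and 50.8 CPM in LAC, 66.0, 58.3 and 57.7 in KO, 9.89, 10.0 and 10.6 in ACT and 109, 99.6 and 111 in QS. KO stood at 5.95 times ACT (log2 fold change 2.46, SE 0.068, adjusted p = 5.93e-13) and LAC slightly below KO (-0.27, SE 0.068, adjusted p = 0.00613), with ACT lowest of the 4 groups. Lama2, the chain known from muscle basement membranes, had the opposite course, with 80.0, 88.8 and 80.4 CPM in LAC, 21.2, 16.0 and 17.0 in KO, 73.8, 73.1 and 81.5 in ACT and 21.6, 24.7 and 23.2 in QS. KO was at 23.7% of ACT (-2.02, SE 0.096, adjusted p = 2.27e-10) and LAC at 4.60 times KO (2.15, SE 0.096, adjusted p = 5.16e-10). LAC and ACT overlapped in Lama2 (0.12, 95% interval -0.08 to 0.33, adjusted p = 0.313). Lama4, a chain of vascular and mesenchymal laminins, measured 80.8, 83.9 and 73.9 CPM in LAC, 109.8, 111 and 101 in KO, 99.4, 92.7 and 101 in ACT and 201, 225 and 205 in QS. LAC was below KO (-0.43, SE 0.061, adjusted p = 7.53e-05), and KO vs ACT missed the threshold (0.13, adjusted p = 0.073), though it passed without KO replicate 3 (0.17, adjusted p = 0.0329) and with equal totals (0.16, adjusted p = 0.0294). Lama5, the chain of laminin-511, averaged 61.6 ± 2.31 CPM in LAC, 93.1 ± 12.4 in KO, 58.1 ± 4.38 in ACT and 72.2 ± 9.42 in QS, higher in KO than in ACT (0.67, SE 0.101, adjusted p = 5.64e-05) and lower in LAC than in KO (-0.58, SE 0.101, adjusted p = 0.000429). Its lower level in ACT than in QS (-0.30, adjusted p = 0.0153) was lost with equal totals (adjusted p = 0.057), equal upper quartiles (0.18) and quantile normalization (0.107), and without QS replicate 1 or ACT replicate 1. Lama3, the chain of epithelial laminin-332, was listed at 0 in all LAC libraries, averaged 0.501 CPM in KO and 0.617 in ACT, and had 8.0, 8.99 and 13.0 CPM in QS.

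Of the beta and gamma chains described, Lamb1 and Lamc1 were the most abundant per kb. Lamb1 measured 531, 519 and 512 CPM in LAC, 426, 425 and 416 in KO, 426, 431 and 436 in ACT and 138, 142 and 132 in QS. LAC stood above KO and ACT without overlap (0.30 in LAC vs KO, SE 0.033, adjusted p = 6.2e-06), and KO and ACT differed by -0.03 (95% interval -0.10 to 0.04), a difference that was called with equal upper quartiles (-0.084, adjusted p = 0.0392) and with quantile normalization (-0.12, adjusted p = 0.00796). Lamc1 measured 652, 631 and 625 CPM in LAC, 709, 631 and 636 in KO, 383, 378 and 385 in ACT and 432, 421 and 416 in QS. It was higher in KO than in ACT (0.78, SE 0.041, adjusted p = 7.55e-10) and overlapped between LAC and KO (-0.05, 95% interval -0.14 to 0.04). The small difference of Lamc1 in ACT vs QS (-0.15, adjusted p = 0.00561) was lost with equal totals (-0.06, adjusted p = 0.143) and turned to 0.0018 with equal upper quartiles. Lamb2, the beta chain of synaptic and mature vascular laminins, averaged 52.2 ± 1.69 CPM in LAC, 61.7 ± 7.56 in KO, 36.8 ± 1.22 in ACT and 60.7 ± 7.05 in QS, higher in KO than in ACT by 0.72 (SE 0.090, adjusted p = 8.23e-06). LAC vs KO missed the threshold for Lamb2 (-0.23, adjusted p = 0.056) and passed it without KO replicate 3 (-0.31, adjusted p = 0.0164) and under all 3 other scalings (adjusted p 0.0358 to 0.0497).

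Per kb, the summed laminin alpha chains stood at 32.5 ± 1.40 in LAC, 34.2 ± 2.46 in KO, 30.3 ± 1.31 in ACT and 55.7 ± 0.912 in QS, in CPM per kb (SD, n = 3 each). The beta chains summed to 99.3 ± 1.90 in LAC, 83.9 ± 2.18 in KO, 81.1 ± 0.694 in ACT and 34.5 ± 1.61 in QS, and Lamc1 alone stood at 83.4 ± 1.84 in LAC, 86.4 ± 5.73 in KO, 50.1 ± 0.483 in ACT and 55.5 ± 1.07 in QS. In QS the alpha sum was thus above the beta sum and level with Lamc1, while in the 3 cultured groups the alpha sum was below both the beta sum and Lamc1 at the RNA level. Within the alpha arm Lama4 was the leading chain in every group, with 40.5% of the sum in LAC, 51.9% in KO, 53.3% in ACT and 62.5% in QS. The second chain differed: Lama2 in LAC (26.6%) and ACT (26.1%), Lama5 in KO (23.8%) and Lama1 in QS (20.1%). Lamb1 held 90.7% of the beta sum in LAC, 87.0% in KO, 91.9% in ACT and 68.8% in QS.

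**Figure D4:**
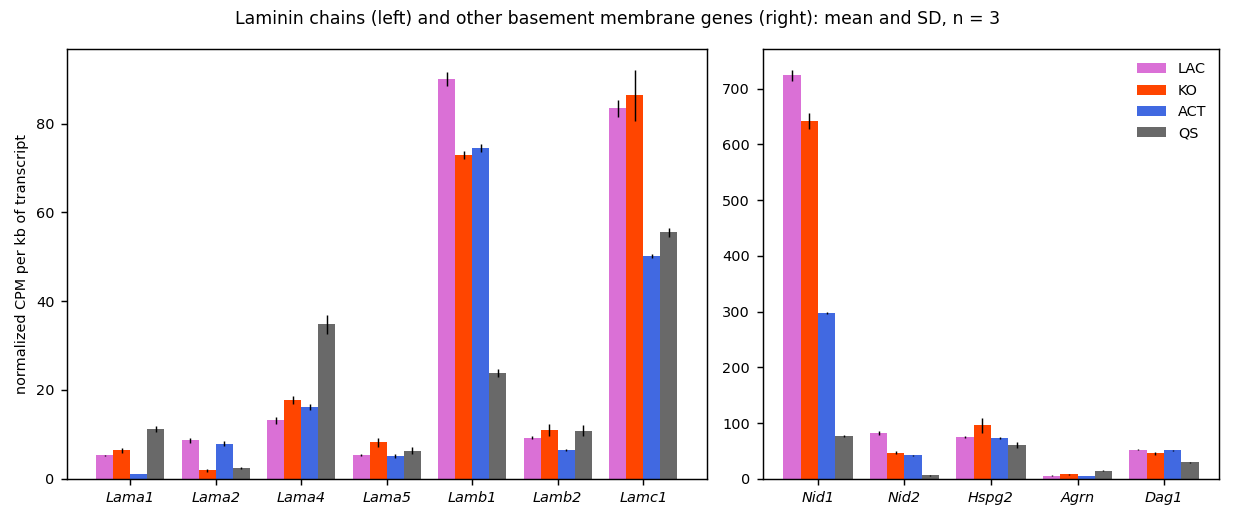
Mean CPM per kb of transcript (bars) with SD over 3 libraries (lines) for laminin chains on the left and for nidogens, perlecan (Hspg2), agrin (Agrn) and dystroglycan (Dag1) on the right, each in LAC, KO, ACT and QS. Nid1 stands at 724 in LAC, 643 in KO, 298 in ACT and 77.4 in QS, above every other gene plotted in each group.

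Nid1, the laminin-to-collagen IV linker, measured 4424, 4463 and 4346 CPM in LAC, 4010.3, 3897 and 3835 in KO, 1802, 1807 and 1828 in ACT and 459, 479 and 476 in QS. Its order LAC, KO, ACT, QS held without overlap, at 0.17 in LAC vs KO (SE 0.028, adjusted p = 0.00026), 1.11 in KO vs ACT (SE 0.028, adjusted p = 2.6e-13) and 1.94 in ACT vs QS (SE 0.028, adjusted p = 3.64e-16). Nid2, its paralogue, averaged 399 ± 17.3 CPM in LAC, 228 ± 11.2 in KO, 206 ± 4.64 in ACT and 30.5 ± 5.34 in QS. LAC exceeded KO by 0.81 (SE 0.094, adjusted p = 1.08e-05), whereas KO vs ACT missed the threshold (0.15, 95% interval -0.06 to 0.35). The KO and ACT libraries of Nid2 did not overlap, as held for 69.2% of all genes. The difference was called when only these 2 groups were fitted (adjusted p = 0.0172). Hspg2, perlecan, measured 1102, 1073 and 1050.3 CPM in LAC, 1545, 1342 and 1186 in KO, 1001, 1046 and 1058 in ACT and 953, 805 and 832 in QS, with a wider spread in KO than elsewhere. KO was above ACT (0.38, SE 0.079, adjusted p = 0.00076) and LAC below KO (-0.33, SE 0.079, adjusted p = 0.00441). Agrn averaged 41.8 ± 1.56 CPM in LAC, 56.0 ± 3.27 in KO, 36.4 ± 2.07 in ACT and 102 ± 7.28 in QS, and was higher in KO than in ACT by 0.61 (SE 0.069, adjusted p = 3.01e-06) and lower in LAC than in KO (-0.41, SE 0.069, adjusted p = 0.000294). Dag1, the dystroglycan precursor, stayed within 251 to 301 CPM in the cultured groups, against 159 to 176 CPM in QS. KO cells had slightly less of it than ACT cells (-0.16, SE 0.045, adjusted p = 0.00657), and LAC cells more than KO cells (0.19, SE 0.045, adjusted p = 0.00354).

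Between cultured ACT cells and fresh QS cells the members spread over a wide range in both directions. Besides the genes at a few CPM, the largest rises in ACT were those of Nid2 (6.75 times QS, log2 fold change 2.73, SE 0.094, adjusted p = 3.47e-12), Itgb5 (6.20 times, 2.61, SE 0.053, adjusted p = 9.67e-15), Itga4 (5.04 times, 2.31, SE 0.071, adjusted p = 1.1e-12) and Itga6 (4.43 times, 2.12, SE 0.044, adjusted p = 1.51e-14). On the log2(CPM + 1) scale the largest falls were those of Itga8 (4.03% of QS, -4.39, SE 0.095, adjusted p = 2.15e-14), Lama1 (9.58%, -3.26, SE 0.068, adjusted p = 1.43e-14), Lama3 (6.17%, -2.80) and Itga1 (16.8%, -2.56, SE 0.054, adjusted p = 1.59e-14). Every gene of the table has at least 1 CPM in 3 libraries, and Lama3 reached this only through QS. Its fall was thus partly fixed in advance, and no p-value is given for it. Itga2b, low in both groups, stood at 9.23% of QS (-2.48, adjusted p = 7.44e-06). Hspg2 moved little (0.26, adjusted p = 0.00793) and lost its call under quantile normalization (0.12, adjusted p = 0.199). Of the 8 laminin chains 2 were higher and 6 lower (Lama3 included) in ACT than in QS, and of the 19 integrin chains outside the leukocyte group 11 were higher and 5 lower, beside 73.5% of all genes called (38% higher, 35.5% lower).

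Comparing LAC with ACT, 16 of the 32 members were higher and 10 lower, where 49.5% of all genes were called (27.8% higher, 21.7% lower). The members past 2-fold numbered 8 and 4, against 12.6% of all genes. Those higher in LAC included Lama1 (4.92 times ACT, log2 fold change 2.19, SE 0.068, adjusted p = 5.53e-12), Itga8 (4.42 times, 1.95, SE 0.095, adjusted p = 6.38e-10), Itgb3 (3.74 times, 1.88, SE 0.055, adjusted p = 3.26e-12) and Nid1 (2.43 times, 1.28, SE 0.028, adjusted p = 1.54e-13). Itga6 remained at 55.0% of ACT (-0.86, SE 0.044, adjusted p = 1.27e-09) and Itga4 at 61.6% (-0.70, SE 0.071, adjusted p = 1.8e-06). Comparisons that share a group of libraries, such as KO vs ACT and LAC vs KO, are not independent of each other. In KO vs QS 16 members were higher and 12 lower (73% of all genes called, 37.4% higher and 35.7% lower), with 8 and 6 past 2-fold (27.6% of all genes), led upward by Nid1 (3.05, SE 0.028, adjusted p = 9.66e-18) and Itga3 (2.95, SE 0.085, adjusted p = 7e-13). Both lower counts in KO vs QS include Lama3, whose fall from QS was partly fixed in advance. With equal upper quartiles the median of all genes in ACT vs QS moved by 0.14, and with equal totals that in KO vs QS moved by 0.10, so smaller differences from QS depend on the scaling.

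The 4 leukocyte integrins followed a course of their own size. Itgam, CD11b of macrophages and neutrophils, measured 237, 241 and 229.7 CPM in LAC, 3.82, 5.77 and 3.85 in KO, 1022, 1028 and 1059 in ACT and 154, 153 and 158 in QS. Itgax, CD11c, measured 93.2, 86.4 and 93.0 CPM in LAC, 2.18, 2.27 and 2.28 in KO, 254, 254 and 259.6 in ACT and 3.70, 2.04 and 4.18 in QS. Both stood at a few CPM in KO and were highest in ACT. Itgal, the alpha chain of LFA-1, measured 42.7, 43.3 and 42.7 CPM in LAC, 2.77, 0.903 and 1.28 in KO, 103, 100.4 and 109 in ACT and 73.6, 60.2 and 74.6 in QS. Itgb2, the beta chain that all of them share, measured 281, 272 and 286 CPM in LAC, 30.5, 26.4 and 35.5 in KO, 1093, 1074 and 1119 in ACT and 273, 238 and 297 in QS. All 4 were lower in KO than in ACT, at -7.58 for Itgam (SE 0.097, adjusted p = 1.73e-16), -6.31 for Itgax (SE 0.149, adjusted p = 1.03e-13), -5.37 for Itgal (SE 0.183, adjusted p = 5.91e-12) and -5.12 for Itgb2 (SE 0.089, adjusted p = 4.13e-15) on the log2 scale. In LAC vs KO all 4 were higher, by 5.45 for Itgam, 4.82 for Itgax, 4.11 for Itgal and 3.15 for Itgb2. All 4 were also higher in ACT than in QS, from 0.58 for Itgal (SE 0.183, adjusted p = 0.0108) to 5.93 for Itgax (SE 0.149, adjusted p = 1.06e-13), and the Itgal call was lost with a pseudocount of 0.1 (adjusted p = 0.0678).

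The differences between LAC, KO and ACT went with those of the macrophage markers as a sum. As a percentage of the ACT mean, LAC stood at 22.7% for Itgam, 35.5% for Itgax, 41.2% for Itgal and 25.5% for Itgb2, and the 18 macrophage markers summed to 24.6%. KO stood at 0.432% for Itgam, 0.876% for Itgax, 1.59% for Itgal and 2.81% for Itgb2, and the marker sum at 1.08%. QS departed from this: it stood at 14.96% for Itgam, 1.29% for Itgax, 66.8% for Itgal and 24.6% for Itgb2, and the marker sum at 42.5%, and of the 18 markers 10 were higher and 6 lower in ACT than in QS, although all 4 integrins were higher in ACT. Lyz2, the macrophage lysozyme, averaged 2240.0 ± 24.5 CPM in LAC, 70.4 ± 1.68 in KO, 9350.2 ± 161 in ACT and 513 ± 24.1 in QS. Of the 18 markers, 17 had a lower level in KO than in ACT, and 14 a higher one in LAC than in KO. The markers that define Kupffer cells, the liver's resident macrophages (Clec4f, Timd4, Cd5l, Vsig4 and Marco, singled out after their values were seen), took another course, all being lower in ACT than in QS. Clec4f averaged 0.784 CPM in LAC, 3.62 in KO, 3.72 in ACT and 359.8 in QS, and Timd4 was listed at 0 in every LAC library and averaged 0.179 CPM in KO, 1.19 in ACT and 114 in QS. Cd5l averaged 7.30 CPM in LAC, 8.36 in KO, 223 in ACT and 1070 in QS. In LAC vs KO Clec4f was lower (-1.37, limma adjusted p = 1.58e-06), Marco was slightly higher (0.50, adjusted p = 0.00686), and Timd4, Cd5l and Vsig4 missed the threshold. Some members that leukocytes also carry, Itga4, Itga5, Itga6, Itgav and Itgb5, were lower in KO cells than in ACT cells and higher in LAC cells than in KO cells. They stood at 18.9% to 65.5% of ACT in KO, and the marker sum at 1.08%. Others took another course. Itgb7, the lymphocyte homing chain, was lower in KO than in ACT but not called in LAC vs KO (0.38, limma adjusted p = 0.351). This depended on 1 library at a few reads: without KO replicate 2, Itgb7 was called higher in LAC than in KO (0.79, limma adjusted p = 0.0239). Itgb1, a partner of Itga4, was higher in KO than in ACT (0.30). The part of macrophages in the values of these genes was not tested.

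**Figure D5:**
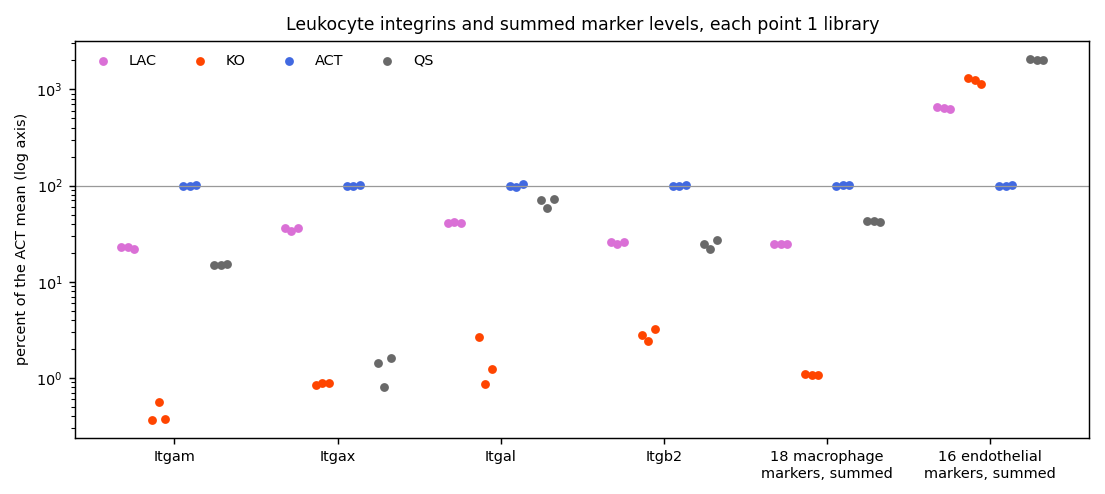
Level in each library as a percentage of the ACT mean (log axis) for the 4 leukocyte integrins, the summed 18 macrophage markers and the summed 16 endothelial markers, in LAC, KO, ACT and QS. The KO points of the integrins and of the macrophage sum lie between 0.369% and 3.24% of ACT, while those of the endothelial sum lie between 1149% and 1300.2%.

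The proteins around these receptors were counted from lists of known partners. Of 33 measured adhesion adaptors and kinases, the intracellular partners of integrins, 14 were higher and 14 lower in KO than in ACT with a median of 0.00 (all genes 0.07). The background for this and the lists that follow is 62.4% of all genes called in KO vs ACT (36% higher, 26.3% lower) and 41% in LAC vs KO (20% higher, 21% lower). The 3 with the largest change were Parvg, the blood-cell parvin, at 24.2 ± 3.27 CPM in ACT and in KO at no more than a trace under 1 read, Ptk2b (15.8 ± 0.579 in KO against 185 ± 4.31 in ACT, log2 fold change -3.47) and Fermt3, the blood-cell kindlin (16.3 ± 1.37 against 114 ± 3.53, -2.73). In LAC vs KO 11 were higher and 11 lower. Of 20 other basement membrane genes, 12 were higher and 7 lower in KO than in ACT, with a median of 0.52. The largest changes were falls: Npnt, nephronectin, the ligand of the Itga8 receptor, averaged 6.42 ± 0.828 CPM in LAC, 0.791 ± 0.740 in KO and 34.2 ± 0.769 in ACT and was listed at 0 in QS. Col4a6, a collagen IV chain, averaged 3.25 ± 0.131 CPM in LAC, 0.547 ± 0.364 in KO, 28.2 ± 0.654 in ACT and 0.0783 ± 0.136 in QS. Col15a1 averaged 9.81 ± 1.11 CPM in LAC, 0.151 ± 0.167 in KO, 19.9 ± 1.50 in ACT and 1.14 ± 0.157 in QS. Npnt therefore was highest in the group in which Itga8 was lowest. In LAC vs KO 8 of the 20 were higher and 5 lower.

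Among 23 integrin ligands 14 were higher and 6 lower in KO than in ACT, with a median of 0.59. Spp1, osteopontin, averaged 1030.3 ± 9.88 CPM in LAC, 123 ± 2.05 in KO, 5084 ± 88.0 in ACT and 97.8 ± 5.82 in QS (KO vs ACT -5.36, limma adjusted p = 7.06e-19). Fn1, fibronectin, averaged 2078 ± 105 CPM in LAC, 718 ± 61.5 in KO, 11337 ± 214 in ACT and 245 ± 7.18 in QS (-3.98, adjusted p = 3.5e-16), a larger step than that of its receptor chain Itga5. Jam2, a junctional ligand of endothelium, was higher in KO than in ACT (86.9 ± 4.83 against 21.7 ± 1.50 CPM, 1.95, adjusted p = 4.15e-12). With lactate, 13 ligands were higher and 6 lower in LAC than in KO. Of 25 other laminin and agrin receptors and dystroglycan partners, 12 were higher and 6 lower in KO than in ACT (median 0.18), among them Cd9, a tetraspanin partner of integrins (40.5 ± 1.43 CPM in KO against 386 ± 3.75 in ACT, -3.22), Dtna, a dystrobrevin (2.17 ± 0.804 against 17.3 ± 1.01, -2.56), and Bcam, the Lutheran receptor for laminin alpha 5 (60.4 ± 5.35 against 11.2 ± 1.01, 2.33). Of these, 6 were higher and 7 lower in LAC than in KO.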

How the data were processed

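Per the labels' protocols, RNA was made into libraries with a stranded mRNA kit. The submitters' processing notes name mm10 and 4 tools (edgeR 3.8, kallisto 0.44.0, FastQC 0.11.8 and cutadapt 1.18), with no role for each. The deposited values are normalized CPM, recorded as a signal because the authors' scaling leaves totals other than 1e6. They did not resolve into whole reads, so no count test was run. All 12081 genes have a value of at least 1 in 3 libraries.

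From these values log2(CPM + 1) was computed and fitted with limma 3.58.1 (R 4.3.3): 4 group means over all 12 libraries, trended moderation, two-sided, Benjamini-Hochberg adjustment over all genes within a comparison, called at 0.05. The fit was tested on simulated data. The members, gene lists and motifs were chosen with earlier results of these data known. Of the genes that match the symbol rule, 1 is not reported here and enters no member count; it stays in the fit. All other members are named; every library is printed for those past 2-fold in KO vs ACT or LAC vs KO with a level of at least 5, and for the most abundant member of each role. List genes are the 3 with the largest called change in KO vs ACT and a mean of at least 5 CPM in the higher group. Groups of 3 are too small for an outlier test. Promoter sequences are from RefSeq (GRCm38.p6); transcript lengths are from GENCODE M21, and protein sequences were not used here. Alternatives were pseudocounts, filters, scalings, a replicate block, the 2 groups alone, untrended moderation, array weights, stricter thresholds and left-out libraries.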

Additional observations from a re-analysis of the deposited data

How the results depend on the processing

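Of the 32 members outside the leukocyte group, the number higher in KO than in ACT was 13 and stayed between 13 and 16 over the alternatives tried other than the 2-fold one (pseudocount, filter, 3 scalings, replicate block, spread model, stricter p and left-out libraries), and the number lower was 11 and stayed between 9 and 12. In LAC vs KO the ranges were 13 to 16 (main 14) and 9 to 10 (main 9), in ACT vs QS 15 to 17 (17) and 10 to 13 (12), in LAC vs ACT 15 to 16 (16) and 8 to 11 (10), and in KO vs QS 14 to 16 (16) and 11 to 12 (12). Asking for at least a 2-fold change moved the counts most. It left 1108 genes higher and 1181 lower in KO vs ACT with 7 members higher, 618 and 264 genes in LAC vs KO with 6 members higher and 1 lower, 1965 and 1800 genes in ACT vs QS, 781 and 743 genes in LAC vs ACT with 8 members higher and 4 lower, and 1718 and 1620 genes in KO vs QS with 8 members higher and 6 lower. At an adjusted p under 0.01, 1681 genes were lower in LAC vs KO.

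Signs turned for members not called in the first place nor under the setting that turned them, except Lamc1 in ACT vs QS, which was called before the turn. Lamb1 in KO vs ACT, which turned with equal totals, was called lower under both other scalings. With equal upper quartiles the log2 fold change was 0.0018 for Lamc1 in ACT vs QS, -0.026 for Dag1 and -0.0027 for Hspg2 in LAC vs ACT, and 0.022 for Itga4 and 0.060 for Itgb6 in KO vs QS. With equal totals it was 0.00037 for Lamb1 in KO vs ACT, and 0.040 for Itga4 and 0.072 for Itgb6 in KO vs QS. Quantile normalization gave 0.093 for Lama3 in KO vs ACT, -0.084 for Itgb8 in LAC vs KO, -0.0089 for Dag1 in LAC vs ACT and 0.018 for Itga4 in KO vs QS. A pseudocount of 0.1 gave 0.023 for Lama3 in KO vs ACT, a pseudocount of 5 gave -0.00066 for Itgb8 in LAC vs KO and 0.011 for Itgb6 in KO vs QS, and array weights gave 0.048 for Itgb6 in KO vs QS. Leaving out 1 library at a time gave ranges of -0.0083 to 0.17 for Itga2 and -0.27 to 0.21 for Lama3 in KO vs ACT, -0.16 to 0.28 for Itgb8 and -0.079 to 0.0058 for Lamc1 in LAC vs KO, -0.72 to 0.049 for Itga10 in LAC vs ACT, and -0.24 to 0.35 for Itgb6 and -0.068 to 0.12 for Lamb2 in KO vs QS. The cause of these turns was not tested.

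Libraries with the same replicate number deviated together weakly at most: 3 of 15 correlations were over 0.1 (range -0.12 to 0.23). A library correlated best with its own number in 14 of 30 cases, each with 3 libraries to choose from. Replicate 1 was the deepest library of every group. With the number as a replicate block, 13 members were higher and 11 lower in KO vs ACT, and 14 higher and 10 lower in LAC vs KO, Lamb2 now passing (adjusted p = 0.0206). No other member call changed under the block. Depth limits what can be said of Itga2b, Itga7, Itga10, Itga11, Itgal, Itgb6, Itgb7, Itgb8 and Lama3, whose values in at least 1 library are at a few reads.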

Other observations

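The remaining marker lists were only partly covered by the table and are given as values. Of portal fibroblast and smooth muscle markers 4 of 9 were measured, and their sum ranged over 222 to 259 CPM in LAC, 49.3 to 55.3 in KO, 413 to 436 in ACT and 14.3 to 31.5 in QS. Cnn1, calponin of contractile cells, averaged 81.4 ± 9.60 CPM in LAC, 9.47 ± 1.23 in KO, 178 ± 5.90 in ACT and 0.273 ± 0.232 in QS (SD, n = 3 each). The mesothelial gene Wt1 averaged 5.89 ± 0.691 CPM in LAC, 0.896 ± 0.261 in KO, 79.8 ± 2.71 in ACT and 0.934 ± 0.635 in QS, and Upk3b averaged 4.61 ± 0.623 CPM in LAC, 0.872 ± 0.395 in KO, 58.4 ± 2.32 in ACT and 5.65 ± 1.046 in QS. Both were highest in ACT with no overlap with any other group. No overlap held for 76.3% of all genes in ACT vs QS, 69.2% in KO vs ACT and 62.8% in LAC vs ACT. The 8 mesothelial markers did not share a course: 5 were higher and 3 lower in ACT than in QS, and 3 higher and 4 lower in KO than in ACT. Over all genes 73.5% were called in ACT vs QS and 62.4% in KO vs ACT.

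Of biliary markers 5 of 7 were measured, and their sum of 1055 to 1076 CPM in LAC, 152 to 158 in KO, 4999 to 5164 in ACT and 106 to 117 in QS was mostly Spp1. The platelet genes Pf4 and Ppbp, the measured ones of that list besides the members Itga2b and Itgb3, differed in course: Pf4 averaged 5.04 CPM in LAC, 3.41 in KO, 36.2 in ACT and 5.18 in QS, and Ppbp stayed under 4.1 CPM in every library. Ngfr, the 1 measured Schwann cell and nerve marker of 6, averaged 5.94 CPM in LAC, 11.0 in KO, 1.45 in ACT and 39.3 in QS, and S100a8, the 1 measured lymphocyte and neutrophil marker of 12, averaged 1.39 CPM in LAC, 0.197 in KO, 4.36 in ACT and 3.14 in QS.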
